A study of Homo sapiens with 3 samples.

Results

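The adhesion and identity genes examined here are 10 members: the cadherin family genes CDH1, CDH2 and DSG2, the transcription factor genes SNAI1, SNAI2, TWIST1, ZEB1 and ZEB2, and the mesenchymal genes VIM and FN1. They were taken as every probe set whose single symbol on the Affymetrix HG-U133 Plus 2.0 array is one of these genes, which gave 27 of 54613 probe sets. Messenger RNA was measured in the KMS11 line, which comes from human multiple myeloma and has the t(4;14) translocation, which raises expression of the histone methyltransferase gene MMSET (current symbol NSD2). All cells were infected with lentivirus in the presence of polybrene and collected at 48 h. The groups were shMMSET#2 and shMMSET#4, hairpin RNAs against MMSET, and shLuc, a control hairpin against luciferase, with 1 array each from this 1 cell line. The cells of all 3 groups, the control included, therefore carried the translocation, a lentiviral hairpin and 1 collection time. No group had a replicate, so differences are given by size, with no p-value, and words such as "lower" apply to these 3 arrays alone.

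Epithelial-mesenchymal transition (EMT) is a programme in which epithelial cells give up E-cadherin junctions and take on N-cadherin, vimentin and fibronectin. The Snail, Twist and ZEB proteins drive it, and Snail and ZEB proteins repress CDH1 by binding E-box sequences. Plasma cells are not epithelial, but myeloma cells use cadherins, fibronectin and other adhesion molecules in contact with bone marrow, and MMSET has been reported to raise TWIST1 in prostate cancer cells. According to the series title, the question was how MMSET acts on transcription factors that t(4;14) myeloma cells need to survive.

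The values are MAS5 signals, linear brightness values per probe set. Signals at or under 41.2, the 40th percentile over all arrays, were treated as a floor, and a ratio in which either signal is at the floor is a bound. Of the 27 probe sets, 18 passed the filter, which asks for a signal above the array's median on at least 1 array, as did 31527 probe sets in all. Spread could be judged solely from how far apart the shMMSET#2 and shMMSET#4 arrays lay, and any true difference between these hairpins is part of that. The median tested probe set differed 1.30-fold between them, and 95% differed by no more than 2.38-fold. NSD2 was lower with shMMSET#2 on 6 of 6 probe sets (log2 ratios from -2.69 to -0.54) and with shMMSET#4 on 5 of 6 (from -1.62 to 0.05), and on 4 of 6 with shMMSET#4 (from -1.24 to 0.43) once all arrays were scaled to the same median. The median log2 ratio over all tested probe sets was -0.09 with shMMSET#2 and -0.12 with shMMSET#4 as deposited, and 0.20 and 0.23 after that median scaling. Of probe sets at least 2-fold from shLuc with both hairpins, 71.2% were lower as deposited, 26.5% after median scaling and 46.0% after quantile normalization. For ACTB, whose control probe sets compare the 3' with the 5' end of the transcript, the 3' log2 signal was higher by 1.14 with shMMSET#2, by 1.14 with shMMSET#4 and by 1.70 with shLuc. For GAPDH, compared likewise, the difference was 0.10 with shMMSET#2, 0.00 with shMMSET#4 and 0.04 with shLuc. All 10 plasma cell markers were above the floor on all 3 arrays. Of the fibroblast markers, 3 of 7 (COL3A1, PDGFRA and PDGFRB) were at the floor on all 3, and the summed signal of the 7 was 501 with shMMSET#2, 302 with shMMSET#4 and 449 with shLuc.

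FN1 had 3 probe sets at least 2-fold lower with both hairpins. CDH2 had 1, which passed the filter through the shLuc array alone, so that the filter favoured this direction. CDH1 had the lowest ratio of all members, with shMMSET#2. At least 2-fold lower with shMMSET#2 were 6 of the 27 member probe sets, belonging to CDH1, CDH2, SNAI2 and FN1, and 6 were lower with shMMSET#4, belonging to CDH2, VIM and FN1. With both hairpins 4 were lower, 3 of FN1 and 1 of CDH2. All of these are among the 18 past the filter, of which they make 33.3% with each hairpin and 22.2% with both. The members were chosen with earlier results of these data known, so that these shares are a description. No member probe set was at least 2-fold higher with either hairpin. Among all tested probe sets, 11.9% were at least 2-fold lower with shMMSET#2, 13.4% with shMMSET#4 and 5.94% with both, and 5.66%, 5.58% and 2.41% were higher. After median scaling 4 member probe sets were lower with shMMSET#2, 3 with shMMSET#4 and 2 with both, beside 5.65%, 5.89% and 2.13% of all tested probe sets. Without identifiers ending in _x_at or _s_at, 1 was lower with shMMSET#2 and none with shMMSET#4 or both, beside 14.6%, 17.1% and 7.99% among those tested on the whole array. That setting removes most of the 18, among them every called probe set of CDH1, CDH2, VIM and FN1. So few member probe sets remain that these counts cannot be weighed against the shares. The median log2 ratio of the 18 member probe sets past the filter was -0.48 with shMMSET#2 and -0.63 with shMMSET#4, as a description, since the filter admits dim probe sets only where 1 array is bright and since 5 of the 18 belong to FN1.

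**Figure D1:**
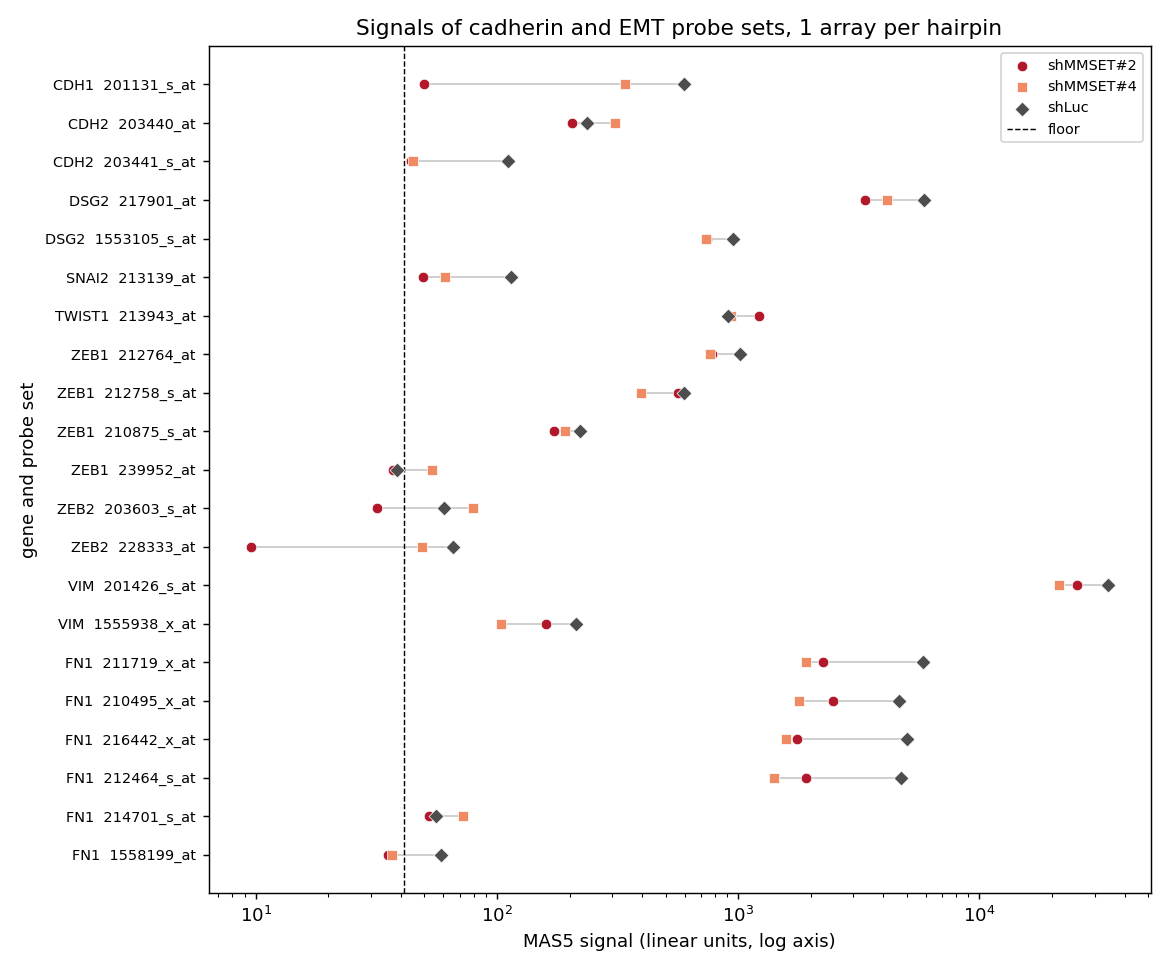
MAS5 signals (log axis) of the member probe sets above the floor of 41.2 (dashed line) on at least 1 array, with 1 point for each array. The 4 bright FN1 probe sets lie at 2467 or less with the hairpins against MMSET and at 4655 or more with shLuc, and the CDH1 probe set is near the floor with shMMSET#2 alone.

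CDH1 encodes E-cadherin, the calcium-dependent adhesion protein of epithelial junctions. Its probe set 201131_s_at had a signal of 50.0 with shMMSET#2, 339.9 with shMMSET#4 and 595 with shLuc. The shMMSET#2 signal was low and near the floor, and the shMMSET#4 signal lay between those of the other arrays. The probe set was 11.9-fold lower with shMMSET#2 (log2 ratio -3.57), and 0.03% of all tested probe sets had a ratio this low or lower. With shMMSET#4 it was 1.75-fold lower (log2 ratio -0.81), inside the 2.30-fold that holds 95% of probe sets of its signal decile between the hairpin arrays. It was 6.79-fold higher with shMMSET#4 than with shMMSET#2. It was the single tested member probe set called 2-fold apart between the hairpins, where 5.39% of all tested probe sets were higher with shMMSET#4 and 5.25% lower. The tested ZEB2 probe set 203603_s_at was at least 1.93-fold higher with shMMSET#4. That is a bound, since its shMMSET#2 signal was under the floor, so it may be 2-fold apart too. This ZEB2 probe set passed the filter through the shMMSET#4 array alone, so that the filter favoured this direction. A second CDH1 probe set, 201130_s_at, was under the floor on every array, at 28.9 with shMMSET#2, 25.9 with shMMSET#4 and 31.8 with shLuc. The CDH1 values thus come from 1 probe set. In RNA from whole cultures, fewer cells with a transcript and less of it per cell cannot be told apart.

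CDH2 encodes N-cadherin, the cadherin that replaces E-cadherin in EMT. Its probe sets disagreed. On 203441_s_at the signal was 44.2 with shMMSET#2, 45.0 with shMMSET#4 and 112 with shLuc. That is 2.52-fold and 2.48-fold lower with the hairpins against MMSET, beside a spread of 2.50-fold in its decile. Both lower signals are close to the floor, and the probe set passed the filter through the shLuc array alone. Its log2 ratios with shMMSET#2 and shMMSET#4 were -1.01 and -0.93 after median scaling. They were -1.04 and -0.94 after quantile normalization, so that under either scaling it passed 2-fold with shMMSET#2 alone. On the brighter 203440_at the signal was 205 with shMMSET#2, 308 with shMMSET#4 and 236 with shLuc. Here the hairpin arrays lie on either side of shLuc, with log2 ratios of -0.20 and 0.39, and the first turns to 0.12 after scaling to equal medians. The ACTB difference between 3' and 5' ends was larger on the shLuc array, and that of GAPDH was not. The part of the ACTB difference in these values was not tested.

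DSG2 encodes desmoglein 2, a cadherin of desmosomes. The probe set 217901_at had a signal of 3341 with shMMSET#2, 4133 with shMMSET#4 and 5910.4 with shLuc. On 1553105_s_at the signals were 744 with shMMSET#2, 735 with shMMSET#4 and 954 with shLuc. All 4 ratios were below 1, from 1.77-fold lower to 1.28-fold lower, and each was inside the spread of its decile (1.87-fold and 2.17-fold). After median scaling the log2 ratios of 1553105_s_at were -0.04 with shMMSET#2 and 0.01 with shMMSET#4, so that their sign depends on the scaling.

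SNAI1 encodes Snail, a zinc finger repressor of CDH1. It had signals of 4.21 with shMMSET#2, 7.09 with shMMSET#4 and 3.38 with shLuc, all far below the floor, so that no ratio is given. SNAI2, which encodes the related repressor Slug, had a signal of 49.3 with shMMSET#2, 61.1 with shMMSET#4 and 114 with shLuc on its 1 probe set, 213139_at. Both hairpin arrays were below shLuc, 2.31-fold with shMMSET#2 and 1.87-fold with shMMSET#4, which is inside the 2.50-fold spread of this dim decile. After median scaling the log2 ratios were -0.89 and -0.52, so neither was then 2-fold lower.

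TWIST1, a basic helix-loop-helix factor that promotes EMT, had signals of 1223 with shMMSET#2, 935 with shMMSET#4 and 908 with shLuc. The 3 arrays were close together, with log2 ratios of 0.43 and 0.04, both inside a spread of 2.17-fold. The size of these ratios depends on the scaling, with 0.75 and 0.42 after scaling to equal medians and 0.42 and 0.05 after quantile normalization. It was the single member whose tested probe set had a ratio above 1 with both hairpins under all 3 scalings.

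ZEB1 and ZEB2 encode zinc finger and homeobox repressors of CDH1 that also have roles in lymphocytes. The brightest ZEB1 probe set, 212764_at, had signals of 780.2 with shMMSET#2, 762 with shMMSET#4 and 1015 with shLuc. On 212758_s_at they were 563, 394 and 598 in the same order, and on 210875_s_at 173, 191 and 221. All 6 ratios were below 1 as deposited, between 1.06-fold and 1.52-fold lower, and all were inside the spread of their deciles. Median scaling turned the sign on 212758_s_at with shMMSET#2 (log2 ratio 0.23) and on 210875_s_at with shMMSET#4 (0.17). The ZEB1 probe set 239952_at was above the floor with shMMSET#4 alone (37.0, 53.9 and 38.4 with shMMSET#2, shMMSET#4 and shLuc).

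ZEB2 was at or near the floor. Its probe set 203603_s_at had signals of 31.8 with shMMSET#2, 79.4 with shMMSET#4 and 60.2 with shLuc. On 228333_at they were 9.60 with shMMSET#2, 49.0 with shMMSET#4 and 65.6 with shLuc. Both were under the floor with shMMSET#2, at least 1.46-fold and at least 1.59-fold lower than with shLuc, whereas with shMMSET#4 one lay above shLuc and the other below it. The one above, 203603_s_at, passed the filter through the shMMSET#4 array alone, and 228333_at did not pass it. The other 3 ZEB2 probe sets were under the floor on every array, with signals from 1.93 to 12.6.

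VIM encodes vimentin, the intermediate filament protein of mesenchymal and blood cells. Its probe set 201426_s_at had signals of 25419 with shMMSET#2, 21427 with shMMSET#4 and 33991 with shLuc. The dimmer 1555938_x_at had 159 with shMMSET#2, 104 with shMMSET#4 and 213 with shLuc. Both probe sets had the same order of arrays, with shMMSET#4 lowest and shLuc highest. They were each 1.34-fold lower with shMMSET#2, and 1.59-fold and 2.05-fold lower with shMMSET#4, inside spreads of 1.87-fold and 2.73-fold. After median scaling the log2 ratios lay between -0.66 and -0.10.

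FN1 encodes fibronectin, an extracellular matrix protein that cells bind through integrins. The probe set 211719_x_at had signals of 2241 with shMMSET#2, 1904 with shMMSET#4 and 5826 with shLuc. On 210495_x_at they were 2467 with shMMSET#2, 1795 with shMMSET#4 and 4655 with shLuc. On all 4 bright probe sets shMMSET#4 was lowest, shMMSET#2 was next and shLuc was highest. The signals were 1745, 1575 and 4993 on 216442_x_at, and 1905, 1401 and 4732 on 212464_s_at, with shMMSET#2, shMMSET#4 and shLuc. The median log2 ratio over these 4, which were singled out after their values were seen, was -1.35 with shMMSET#2 (SD 0.26 over probe sets) and -1.64 with shMMSET#4 (SD 0.16). Probe sets of 1 gene share each array and are not replicates, and 3 of the 4 have identifiers ending in _x_at, which marks probes that can bind other transcripts.

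The FN1 folds ran from 1.89 to 2.86 lower with shMMSET#2 and from 2.59 to 3.38 lower with shMMSET#4. Of these 8 folds, 7 were outside the spread of their deciles (1.87-fold and 2.07-fold), the exception being 210495_x_at with shMMSET#2. After median scaling, 2 of the 4 probe sets still passed 2-fold with both hairpins, and all 8 log2 ratios stayed negative, from -1.38 to -0.60. The 3 other FN1 probe sets were dim. The signal of 214701_s_at was 52.2 with shMMSET#2, 72.5 with shMMSET#4 and 56.2 with shLuc, and 1558199_at was above the floor with shLuc alone, at 35.3 with shMMSET#2, 36.6 with shMMSET#4 and 58.4 with shLuc. On 214702_at all signals were under the floor, at 31.1, 2.34 and 26.6 in the same order.

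**Figure D2:**
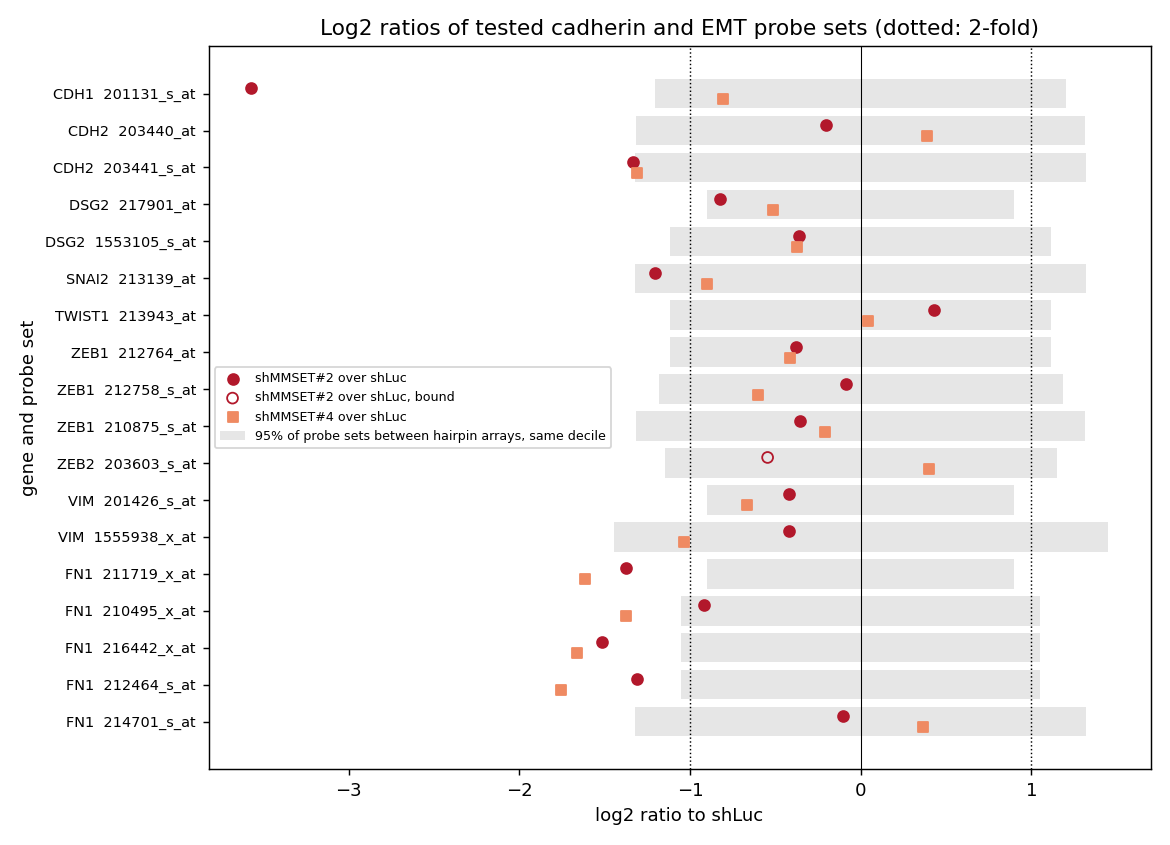
Log2 ratios to shLuc of the 18 member probe sets past the filter, with a circle for shMMSET#2 and a square for shMMSET#4, open where it is a bound. Grey bars span the 95% range of the difference between the hairpin arrays in the same signal decile, dotted lines mark 2-fold, and CDH1 with shMMSET#2 lies farthest to the left, at -3.57. Of the 8 points of the 4 bright FN1 probe sets, 7 lie outside the grey bars.

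The tested genes with the pair of ratios most like that of FN1 on its brightest probe set, by Euclidean distance over the log2 ratios from the 3 arrays among 11638 other genes off the floor, were NTRK2 (2.64-fold and 3.03-fold lower with shMMSET#2 and shMMSET#4, distance 0.03), HESX1 (2.48-fold and 3.13-fold) and LOC100507006 (2.74-fold and 3.04-fold). All 3 genes were far dimmer than FN1. Their signals with shMMSET#2 and shMMSET#4 were 129 and 113 for NTRK2, 81.0 and 64.3 for HESX1, and 68.9 and 62.2 for LOC100507006. With 3 arrays such likeness describes these values alone.

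**Figure D3:**
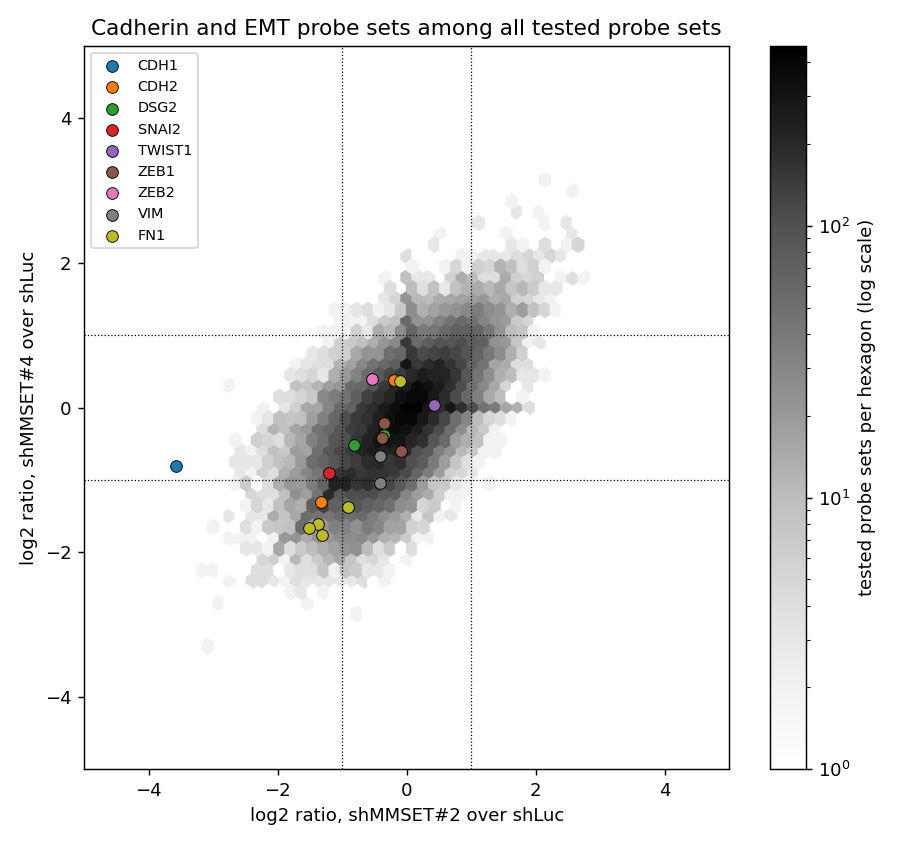
Log2 ratio to shLuc with shMMSET#4 (vertical) against shMMSET#2 (horizontal) for 31527 tested probe sets, shown as grey hexagons by number, with member probe sets as coloured points and dotted lines at 2-fold. Both axes use the same shLuc array, CDH1 lies at -3.57 and -0.81, and the bright FN1 points lie at the lower left.

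The RefSeq promoter table of GRCh38.p14 held no entry for CDH1, so that no CDH1 promoter was examined. Promoter sequence is shown for FN1, CDH2 and DSG2. FN1 and CDH2 had the probe sets lower with both hairpins. DSG2 was chosen since, of the cadherin genes with an entry, it is the one whose window holds E-boxes. Each is the 250 bases before the annotated start, 5′ to 3′ on the gene's strand. The windows are chr2:215436069-215436318, minus strand, for FN1, chr18:28177131-28177380, minus strand, for the first of the CDH2 starts, and chr18:31497927-31498176, plus strand, for DSG2. Capitals mark the E-box CACCTG, read on both strands so that it also appears as CAGGTG, and the cyclic AMP response element TGACGTCA, which reads the same on both strands and was added to the search after the FN1 values were seen.
FN1: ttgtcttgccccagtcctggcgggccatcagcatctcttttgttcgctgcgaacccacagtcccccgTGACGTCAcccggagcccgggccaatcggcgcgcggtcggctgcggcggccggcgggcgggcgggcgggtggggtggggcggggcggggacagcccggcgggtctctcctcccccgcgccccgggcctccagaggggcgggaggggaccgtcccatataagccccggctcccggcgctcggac
CDH2: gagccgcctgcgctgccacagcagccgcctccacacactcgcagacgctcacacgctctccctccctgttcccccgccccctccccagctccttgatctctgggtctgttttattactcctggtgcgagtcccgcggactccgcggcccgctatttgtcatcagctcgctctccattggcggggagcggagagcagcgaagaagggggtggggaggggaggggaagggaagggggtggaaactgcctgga
DSG2: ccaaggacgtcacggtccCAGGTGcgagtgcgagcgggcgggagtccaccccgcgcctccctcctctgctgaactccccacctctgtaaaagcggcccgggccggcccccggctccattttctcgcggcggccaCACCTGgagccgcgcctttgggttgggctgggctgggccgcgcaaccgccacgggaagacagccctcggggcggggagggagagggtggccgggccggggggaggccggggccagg
The FN1 window holds 1 TGACGTCA, which begins 183 bases before the start, and no E-box, and 1.65% of 35116 promoter windows of the same length in the table hold that element. The DSG2 window holds 2 E-boxes, 232 and 116 bases before the start, and the CDH2 window holds none. An E-box was present in 17.5% of all windows. A match is a description of these letters and not a measured site. Of the 10 members, 6 had an entry in the table, and CDH1, SNAI1, SNAI2 and TWIST1 had none. Some ZEB1 windows, not shown here, also hold E-boxes.

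Genes that work with the members were taken from 7 lists of 144 genes, of which 88 were tested on their brightest probe set. The lists were chosen with earlier results of these data known, so that their counts beside the shares of all genes are a description. With both hairpins, 9 of the 88 were 2-fold lower or more, none was that much higher, and 79 were neither, against 4.35% lower and 2.83% higher among 13296 tested genes. Of the 9, CTNNA2, PKP1 and KLF8 passed the filter through the shLuc array alone, so that the filter favoured this direction. The folds of 5 of the 9 (CTNNA2, PERP, ELF3, TGFBR2 and ACVR1) were outside the spread of their deciles with both hairpins. Those of CTNNA2 with each hairpin and of TGFBR2 with shMMSET#2 are bounds. The PKP1 folds are bounds too and fall short of its spread, so its place is not settled. With shMMSET#2, 19 were lower and 3 higher (CDH24, NECTIN1 and DSC2, named after their values were seen). With shMMSET#4, 15 were lower and 4 higher (SNAI3, KRT5, PATJ and LOXL2, named likewise). Of those higher, CDH24 and DSC2 passed the filter through the shMMSET#2 array alone. KRT5, PATJ and LOXL2 passed it through the shMMSET#4 array alone. For these genes the filter favoured the higher direction. Among all tested genes 10.7% were lower and 5.69% higher with shMMSET#2, and 8.95% and 6.74% with shMMSET#4. After median scaling 3 were lower with both hairpins (CTNNA2, ELF3 and TGFBR2) and 1 was higher (TGFBR1, named after its values were seen), where 1.72% of all tested genes were lower and 6.97% higher. The TGFBR1 value is that of its brightest probe set. Its other 2 tested probe sets had log2 ratios as deposited of -0.74 and -0.26 with shMMSET#2. With shMMSET#4 they had -0.00 and -1.33 in the same order.

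Of the partners of cadherins, CTNNA2, an alpha-catenin gene, had a log2 ratio of at most -2.25 with each hairpin, at least 4.77-fold lower (signals 3.42 with shMMSET#2, 15.7 with shMMSET#4 and 197 with shLuc) and was the 1 gene of 13 tested catenin and junction genes lower with both. JUP, which encodes plakoglobin and was chosen after its values were seen, had log2 ratios of -1.11 with shMMSET#2 and -0.51 with shMMSET#4. CTNNB1, the beta-catenin gene, chosen likewise, had signals of 9438 with shMMSET#2, 5994 with shMMSET#4 and 8066 with shLuc, which lie on both sides of the control. Of 5 other cadherin genes tested, 1 was lower with both, namely CDH17, an intestinal cadherin (77.5 with shMMSET#2, 94.0 with shMMSET#4 and 199 with shLuc, 2.56-fold and 2.11-fold lower, inside a spread of 2.73-fold), and 10 of the 19 on the array were at the floor on every array.

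Among 8 tested desmosome genes, the partners of DSG2, 2 were lower with both. PERP, a membrane protein of desmosomes, had signals of 6312 with shMMSET#2, 6438 with shMMSET#4 and 16564 with shLuc. It was 2.62-fold and 2.57-fold lower, outside the 1.87-fold spread of its decile, and its other 2 tested probe sets had log2 ratios from -1.64 to -0.94. PKP1, which encodes plakophilin 1, was lower by at least 2.14-fold with each hairpin (36.2, 10.7 and 88.0 with shMMSET#2, shMMSET#4 and shLuc). These bounds fall short of its 2.22-fold spread, so whether the folds lie outside it cannot be told.

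Of the 19 tested epithelial genes, 7 were 2-fold lower or more with shMMSET#2 and none was that much higher, while with shMMSET#4 MUC1 and ELF3 were lower and KRT5 and PATJ were higher. In the direct comparison of hairpins 8 of 19 were at least 2-fold higher with shMMSET#4 than with shMMSET#2 and none was lower, where 6.6% of all tested genes were higher and 3.72% lower. Of these 8, KRT5 and PATJ passed the filter through the shMMSET#4 array alone, so that the filter favoured this direction, which leaves 6 others. The remaining 11 of the 19 were not called 2-fold apart between the hairpin arrays. For CLDN4, at 5.05 with shMMSET#2 (under the floor) and 60.1 with shMMSET#4, the fold of at least 1.46 is a bound. It may therefore be more than 2-fold apart. Both scaling alternatives also gave 8 genes higher with shMMSET#4. CDH1, which was not on this list, was higher with shMMSET#4 than with shMMSET#2 too, as given before.

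MUC1, an epithelial mucin also found on myeloma cells, had signals of 285 with shMMSET#2, 1280.1 with shMMSET#4 and 2678 with shLuc, which is 9.41-fold and 2.09-fold lower, the second inside a spread of 2.17-fold. Its other 2 tested probe sets had log2 ratios of -3.52 and -0.59 with shMMSET#2 and of -1.12 and -0.42 with shMMSET#4, so that 1 of them passed 2-fold with neither hairpin. ELF3, an epithelial ETS factor, was 2.56-fold and 2.81-fold lower with shMMSET#2 and shMMSET#4. The following were chosen after their values were seen. EPCAM, the epithelial cell adhesion molecule, had signals of 4391 with shMMSET#2, 10651 with shMMSET#4 and 8099 with shLuc. ESRP1, an epithelial splicing regulator, had 106 with shMMSET#2, 343 with shMMSET#4 and 419 with shLuc, and OCLN, the tight junction gene of occludin, had 56.6, 198 and 246 in the same order. The other tested OCLN probe set had the opposite order of hairpins, with log2 ratios of -0.59 with shMMSET#2 and -1.16 with shMMSET#4. The shMMSET#2 array had the lowest signal for 14 of the 19 genes, shMMSET#4 for 1 (ELF3) and shLuc for 4 (KRT5, KRT7, KRT8 and CRB3). Among all 88 listed genes, these 19 included, shMMSET#2 was lowest for 44, shMMSET#4 for 26 and shLuc for 18. The share over all tested genes was not counted. For CLDN4 and KRT5 the lowest and the next signal were both under the floor, so that their ranks mean little. The keratin gene KRT7 had 281 with shMMSET#2, 274 with shMMSET#4 and 197 with shLuc. The median log2 ratio of the 19 was -0.71 with shMMSET#2 and 0.10 with shMMSET#4 as deposited, and -0.39 and 0.48 after median scaling, against -0.04 and -0.02 as deposited and 0.25 and 0.34 after median scaling for all tested genes. Of the 10 plasma cell markers, 4 (IRF4, PRDM1, SLAMF7 and POU2AF1) were lower by 2-fold or more with shMMSET#2 and none with shMMSET#4, while MZB1 was 3.53-fold higher with shMMSET#4, where 10.7% of all tested genes were lower with shMMSET#2, and 8.95% lower and 6.74% higher with shMMSET#4. The summed signal of the 10 was 79576 with shMMSET#2, 115183 with shMMSET#4 and 131920 with shLuc. The part of these differences in the epithelial values was not tested.

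Among 17 tested mesenchymal and matrix genes, none passed 2-fold in the same direction with both hairpins, and their median log2 ratio was -0.14 with shMMSET#2 and -0.12 with shMMSET#4, which turned to 0.11 and 0.26 after median scaling. Of 13 other EMT transcription factors, 1 was lower with both, namely KLF8, a Krueppel-like factor, at least 2.86-fold with shMMSET#2 and 2.32-fold with shMMSET#4, the second inside a spread of 2.50-fold. Of 13 TGF-beta pathway genes, 2 receptor genes were lower with both. TGFBR2, the type II receptor that binds TGF-beta, had signals of 30.3 with shMMSET#2, 108 with shMMSET#4 and 426 with shLuc. Its shMMSET#2 signal was under the floor, so that ratio is a bound. ACVR1, a type I receptor for bone morphogenetic proteins, had 515 with shMMSET#2, 417 with shMMSET#4 and 1209 with shLuc. For both genes the 2 hairpin arrays were below the shLuc array.

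**Figure D4:**
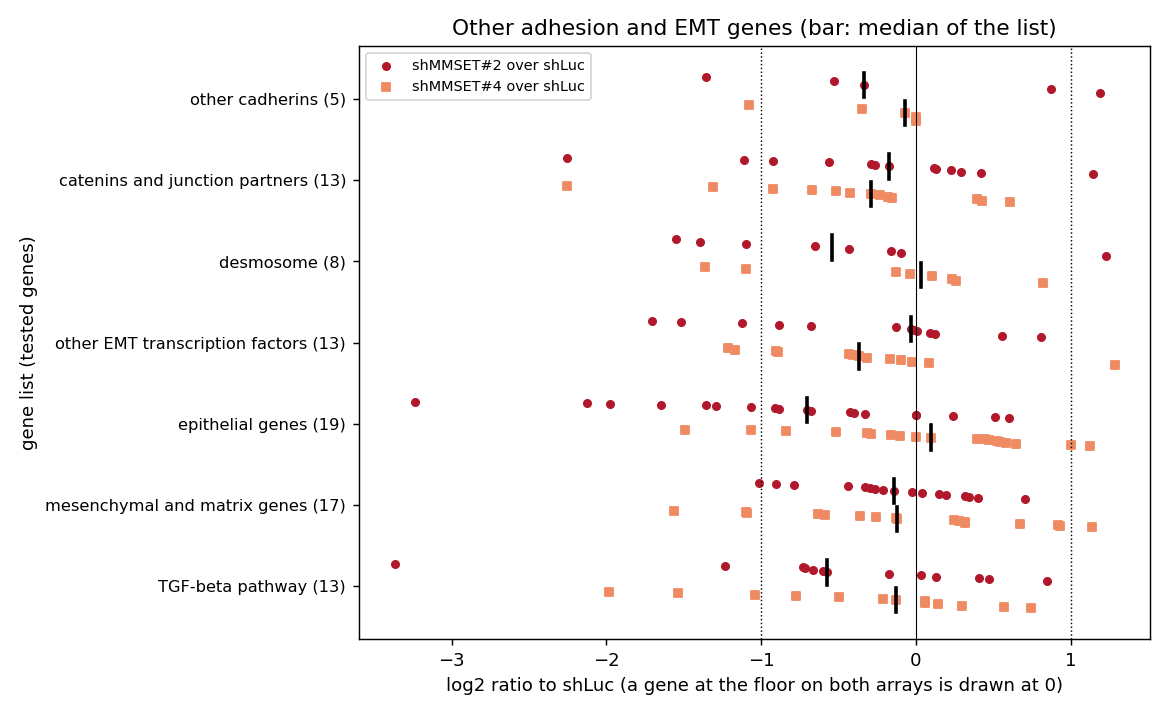
Log2 ratios to shLuc of the tested genes of each adhesion and EMT list (number in brackets), with circles for shMMSET#2, squares for shMMSET#4, bars for list medians and dotted lines at 2-fold. Ratios with 1 of the signals at the floor are drawn at their bound. A gene at the floor on both arrays is drawn at 0 and counts as 0 in the median. The epithelial list has medians of -0.71 with shMMSET#2 and 0.10 with shMMSET#4.

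**Figure D5:**
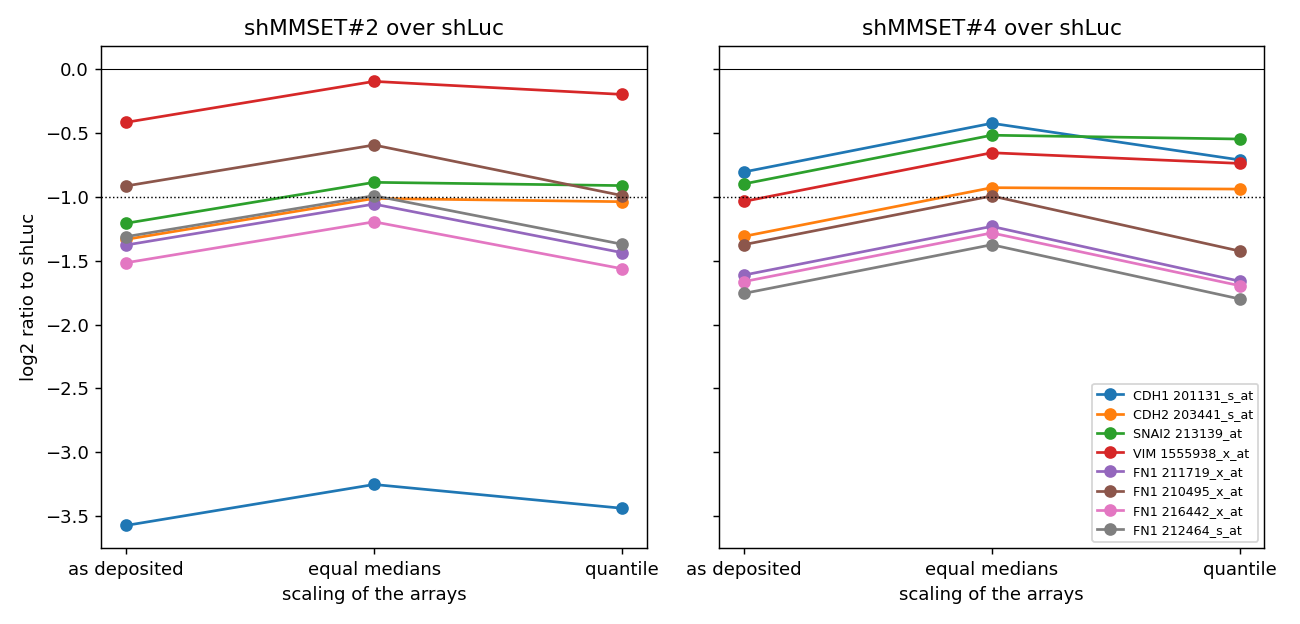
Log2 ratios to shLuc, in panels for shMMSET#2 and shMMSET#4, of the 8 member probe sets at least 2-fold lower with either hairpin, as deposited, with arrays scaled to equal medians and after quantile normalization. The lines keep below 0 in all 3 scalings, and several cross the dotted 2-fold line under equal medians.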

How the data were processed

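The deposited values are MAS5 intensities per probe set on a linear scale, made by the authors with MAS5, per the submitters' processing notes. The design text adds GeneSpring. Tool versions are not given in the sources used here. A 2% trimmed mean was 500.1 on each array, so the authors' values were already scaled and were not rescaled. That text names a smaller array of the same family, but the 54675 identifiers are those of HG-U133 Plus 2.0. The 62 control probe sets were left out. The platform annotation gave 41091 probe sets with 1 symbol, 1801 with several and 11721 with none. Of those with 1 symbol, 41037 had an Entrez identifier found in RefSeq of GRCh38.p14 and took the symbol given there. How many symbols changed was not counted.

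Signals were floored at 41.2 and log2-transformed. For listed genes the brightest probe set by mean signal was used. With 1 array a group there was no test. The small number of arrays limits the precision. The members and lists were chosen with earlier results of these data known. The text names every member, NSD2, each listed gene past 2-fold in 1 direction with both hairpins, and the 3 genes most like a member called on its brightest probe set. Alternatives changed the scaling, floor, filter, fold and probe sets. The software was Python 3.11.15, with matplotlib 3.10.9, scipy 1.17.1, pandas 2.3.3 and numpy 2.4.6.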

Additional observations from a re-analysis of the deposited data

How the results depend on the processing

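Counts of probe sets at least 2-fold lower were 6 with shMMSET#2, 6 with shMMSET#4 and 4 with both hairpins among the members, and 9 listed genes were lower with both and 0 higher. Scaling to equal medians gave 3 member probe sets lower with shMMSET#4, 2 with both, 3 listed genes lower and 1 higher (TGFBR1, on its brightest probe set). A 1.5-fold threshold gave 10 member probe sets lower with shMMSET#4, 7 with both, and 1 listed gene (TGFBR1) higher with both. Leaving out identifiers that end in _x_at or _s_at, which removes CDH1 and all 4 bright FN1 probe sets, left 1 member probe set (SNAI2) lower with shMMSET#2 and 0 with shMMSET#4 or with both. Listed genes lower with both numbered 5 with a floor at the 60th percentile and 4 when a gene's probe sets were averaged, and with no floor 4 were higher (CDH24, DSC2, KRT5 and ITGA5, each under 41.2 with shLuc). The cause was not tested where the setting's own construction does not give it. No member log2 ratio past 2-fold changed sign under the scaling and floor alternatives that gave it a value; with the higher floor, SNAI2 and CDH2 probe set 203441_s_at were at the floor on every array. The CDH1 log2 ratio with shMMSET#2 was -2.34 with the higher floor, and that of ZEB2 probe set 228333_at was -2.77 with no floor, where its shMMSET#2 signal is 9.60. No paired analysis was possible because each group has 1 array. Dim probe sets limit what SNAI1, SNAI2, ZEB2 and one CDH2 probe set can show.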
